A study of Mus musculus with 3 samples.

Results

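Palatal tissue taken after fusion was compared with palatal tissue taken before fusion, across all genes of one mouse genome-wide expression array. Members were the arrays titled after fusion (60 h in culture) and before fusion (5 h), 2 of the 3 arrays of the series, and every gene with a signal above background on at least 1 of them, 13586 of 18193 genes. Maxillae of ICR mouse fetuses, wild type and given no other agent, were removed at E14 and rolled in bottles of BGJb medium with penicillin and streptomycin under oxygen and carbon dioxide. The shelf edge was dissected before fusion and the median tissue of the palate during (24 h) and after fusion, and total RNA went to 1 array per stage. The methods give 5 samples per stage and leave unsaid if their RNAs were pooled. Each ratio compares 2 arrays without replicates, and no test between them was made. The stage of fusion, the hours in culture and the piece dissected change together and cannot be told apart. The signals are MAS5 intensities on a linear scale. Here they were scaled to one trimmed mean, and signals under a background floor were raised to that floor, which was 19.4 before fusion and 14.7 after it. The floor was the 95th percentile of 81 probe sets for sensory receptors. Where 1 of the 2 signals was under it, the ratio is a bound and is written "at least". A gene under the floor before fusion could thus only count as higher, and one under it after fusion only as lower. Each gene is given by its brightest probe set, and 3 signals in a row are those before, during and after fusion.

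Some measurements of the tissue stand before the results. The labels give the gender as female, without saying whether this is the fetus or its mother, yet the Y-linked genes *Eif2s3y* (71.7 before, 196 during and 113 after fusion), *Kdm5d* (31.5, 63.5 and 34.8) and *Uty* (46.6, 74.7 and 42.5) lay above the floor on all 3 arrays. *Xist*, the RNA of the inactive X chromosome, had signals of 2074, 3224 and 1351. The arrays go against the label if it means the fetus, and the part of sex in the ratios was not tested. Markers of palatal epithelium were present at both stages: *Epcam* had a signal of 1646 before and 2074 after fusion and *Cdh1* 1279 and 2138. *Osr2* and *Barx1*, which mark palatal mesenchyme, were above the floor at both stages as well, at 887 and 178 and at 2674 and 389. The tissue is a mixture, so fewer cells of a type and less RNA per cell cannot be told apart in any ratio.

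The secondary palate forms from a pair of shelves of neural crest mesenchyme covered by epithelium. The shelves rise above the tongue, their medial edge epithelia meet and form a seam, and the seam is removed until mesenchyme is continuous across the midline. The oral side then becomes a stratified epithelium, the nasal side a ciliated and secretory epithelium, and the mesenchyme in front forms bone. The comparison asks what the net difference was between the start and the end of this sequence in culture.

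Of the 13586 genes with a ratio, 1758 were over 2-fold higher after fusion, 12.9% of them, and 1341 were over 2-fold lower, 9.87%. These are the shares to set beside the counts of each list below. The median log2 ratio was -0.07, and the quartiles were ratios of 0.678 and 1.39. Among the 11992 genes above the floor on both arrays, 9587 (79.9%) lay within 2-fold. Over 28065 probe sets with a ratio, 10.2% were higher and 10.7% lower. The balance past 2-fold depends on the scaling: 56.7% of the genes past it were higher. Without scaling this was 70.9% and with scaling to the poly-A controls 27.8%, and these settings moved the median log2 ratio by 0.18 and by -0.40. The larger the difference, the more often the gene was higher. Past 4-fold, 648 genes were higher and 123 lower, past 8-fold 276 and 17, past 16-fold 134 and 4, and past 32-fold 60 and 1. The higher genes past 4-fold outnumbered the lower ones under each of the 6 scalings, from 60.9% under the poly-A controls to 90.2% without scaling. Of the 648 genes over 4-fold higher, 294 were under the floor before fusion, and of the 123 over 4-fold lower, 22 were under it after fusion.

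**Figure D1:**
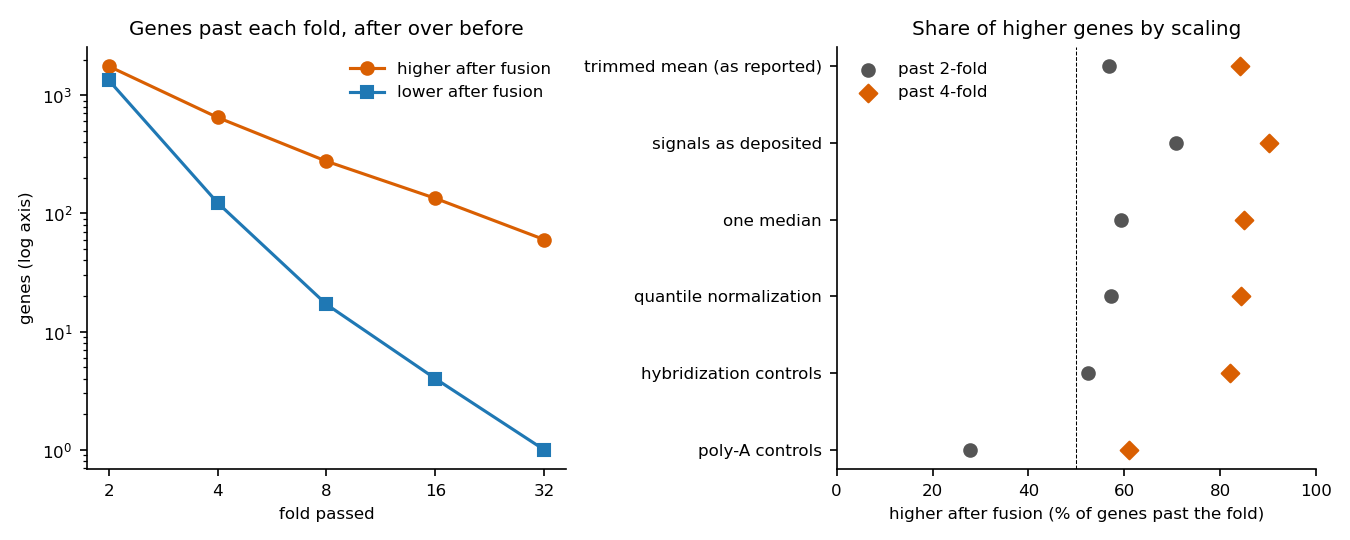
Left, the number of genes (log axis) past each fold after over before fusion, 1 array per stage, for genes higher (circles) and lower (squares). Right, the percentage of the genes past 2-fold (circles) and 4-fold (diamonds) that were higher, under 6 ways of scaling the arrays. At 2-fold the counts are 1758 and 1341, at 32-fold 60 and 1, and the share past 4-fold lies right of 50% under each scaling.

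Fewer of the bright genes passed 2-fold. Of 4654 genes with a mean signal over the 3 arrays of 50 to 200, 16.1% were over 2-fold higher and 12.4% lower, and of 1163 genes with a mean signal of 1000 or more, 8.43% were higher and 4.64% lower. The only spread in these data lies between the probe sets of a gene. Its SD on the log2 scale was 0.46 over 5522 genes with at least a pair of probe sets above the floor on both arrays, and 0.31 where both signals were over 100. For genes called higher by their brightest probe set, 929 of 1032 other measured probe sets (90.0%) had a ratio above 1, 540 passed 2-fold the same way and 11 passed it the opposite way. For genes called lower, 917 of 1010 (90.8%) had a ratio below 1, 485 passed 2-fold and 5 passed it the opposite way. This spread is one between probes on the same arrays and not between embryos.

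**Figure D2:**
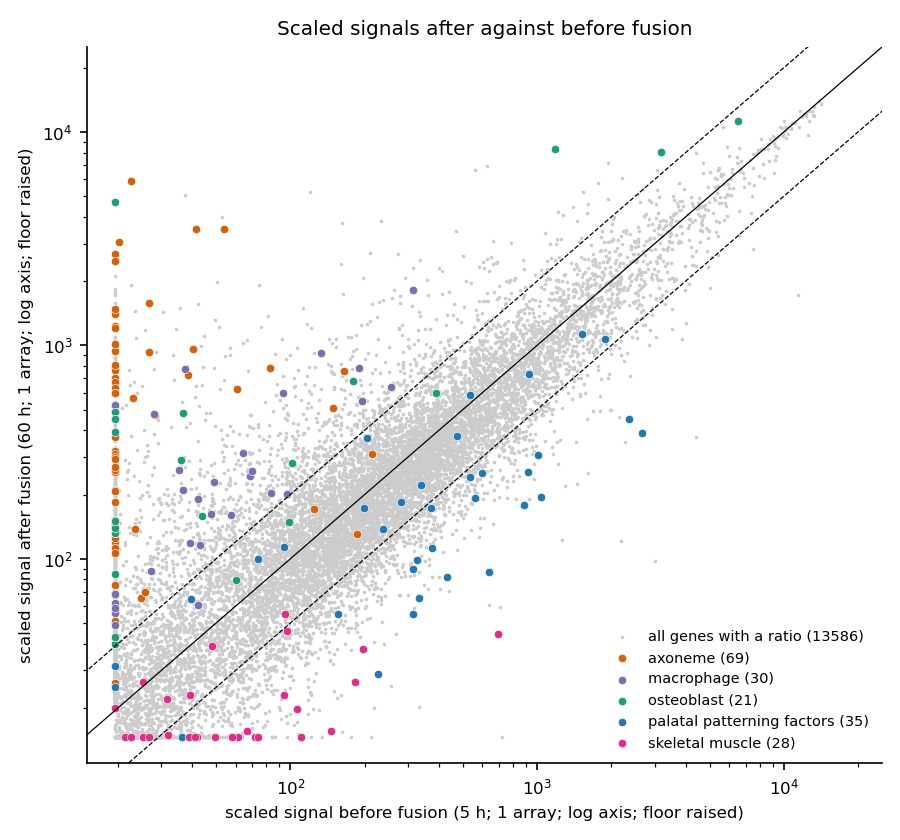
Scaled signal of each of 13586 genes before (x) and after fusion (y), both on log axes with signals under the floor raised to it and 1 array per stage. The solid line marks equal signals and the dashed lines 2-fold. Most axoneme, osteoblast and macrophage genes lie above the upper dashed line, many of them at the floor before fusion, and most palatal patterning and skeletal muscle genes lie below the middle line.

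The genes with the largest ratios came mostly from cilia and secretions. *Dynlrb2*, a light chain of dynein motors, had signals of 22.5 at 5 h, 1009 at 24 h and 5908 at 60 h (ratio 262), and *Lrrc23*, a protein of the radial spokes of motile cilia, 20.3, 420 and 3066 (ratio 151). Their signals before fusion were just above the floor. *Bpifa1*, a secreted antimicrobial protein of the upper airway, went from 37.3 to 5088 (ratio 136), and *Cyp2f2*, a cytochrome of airway epithelium, from 52.7 to 3985 (75.6). *Tppp3*, which binds microtubules, had a ratio of 65.0, and *Nme5*, also of cilia, one of 37.0. *Ly6d* and *Plet1*, surface proteins of epithelial cells, had ratios of 45.7 and 61.6, and *Lyz1*, a lysozyme, one of 47.0. *Hspa4l*, a heat shock protein of the Hsp110 family, was higher on all 5 of its probe sets, with ratios from a bound of 12.9 to 42.1. Agreement was poorer for *Drc3*, of the dynein regulatory complex, where the brightest probe set had a ratio of 59.4 and the other 1.22, and for *Plet1*, where the 3 probe sets had ratios of 1.97, 36.7 and 61.6.

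The genes with the smallest ratios were of another kind. *Hba-x* was 30.6-fold lower and *Hbb-bh1* at least 49.2-fold lower, both of them globins of primitive red cells. *Asb4*, an ankyrin repeat protein of the embryo, had signals of 2178, 411 and 121 on the 3 arrays and was 17.98-fold lower, and its second probe set was 12.7-fold lower. *Cyp26a1*, which breaks down retinoic acid, went from 212 to below the floor and was at least 14.4-fold lower. *Nnat*, an imprinted gene, went from 4422 to 372, 11.9-fold lower. *Epha7*, a receptor for ephrins that guides cells at boundaries, was 10.5-fold lower, and its 4 probe sets spanned 3.49-fold to 15.2-fold. *Unc5d*, a netrin receptor, was at least 9.12-fold lower. *St6gal2*, a sialyltransferase, was 10.97-fold lower, *Ddx25*, an RNA helicase, 10.5-fold, and *Fndc3c1* 10.1-fold. *Cntn3*, a neural adhesion protein, was at least 8.22-fold lower by its brightest probe set and 1.37-fold lower by the other. *Greb1*, *Lrrc4b*, *Vat1l* and *Tagln3* were at least 5.89-fold, 5.74-fold, 5.71-fold and 5.08-fold lower, and *Hspa12b* was 7.13-fold lower.

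**Figure D3:**
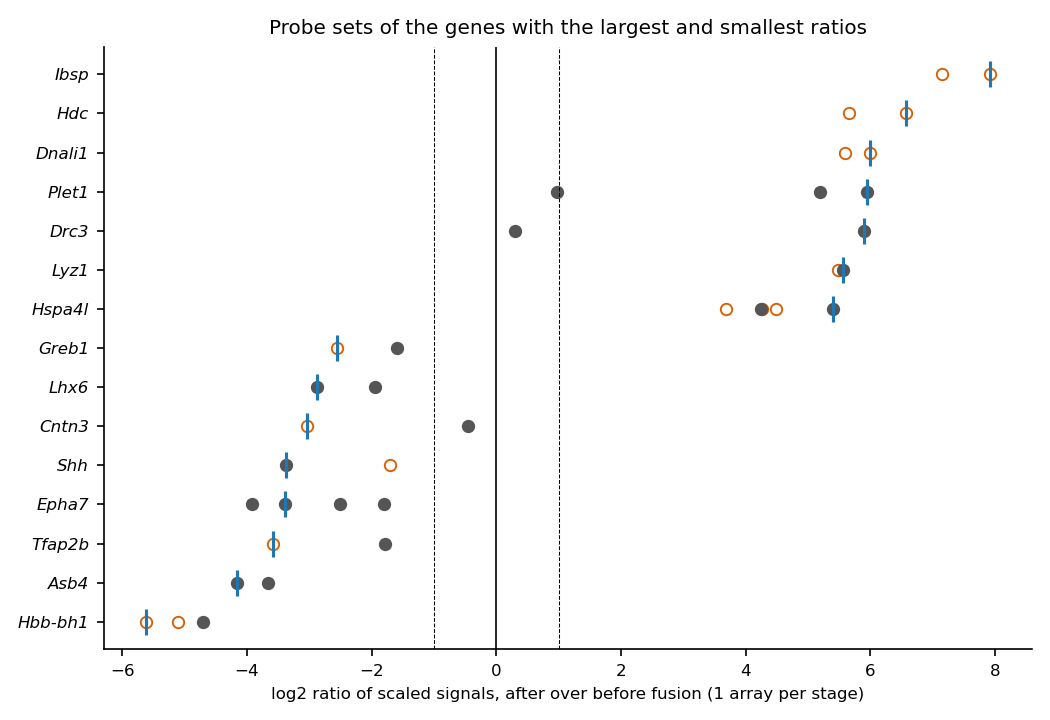
Log2 ratio after over before fusion of each measured probe set of the 15 genes with more than 1 measured probe set among the genes of the largest and the smallest ratios or bounds. Filled points are above the floor on both arrays, open points are bounds, the vertical mark is the brightest probe set and the dashed lines mark 2-fold. The probe sets of each gene lie on one side of 0, with *Drc3*, *Plet1* and *Cntn3* spread the most toward it.

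Motile cilia beat by an axoneme of doublet microtubules with dynein arms, radial spokes and docking complexes. They are built by intraflagellar transport in cells that first multiply their centrioles. Of the 17 measured regulators of this programme 4 were under the floor before fusion. *Foxj1*, the transcription factor that switches on motile cilium genes, had signals of 3.90, 263 and 980, at least 50.5-fold higher. *Ccno* and *Deup1*, which act in centriole multiplication, were 46.2-fold and at least 45.8-fold higher, *Myb* was 9.18-fold higher and *Foxn4* at least 7.999-fold higher. In all 11 of the 17 were over 2-fold higher and none lower, with a median log2 ratio of 1.56. *Tfdp1*, *Rfx1* and *E2f5*, which many cells use, were within 2-fold, at 1.27-fold, 1.20-fold and 1.13-fold lower.

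The transport machinery, which builds all cilia, differed less. Of 33 measured genes of intraflagellar transport and the BBSome, 18 were over 2-fold higher and none lower, with a median log2 ratio of 1.05. *Ift172* went from 121 before and 143 during to 516 after fusion (ratio 4.25), *Ttc30b* had a ratio of 4.32, *Traf3ip1* of 4.10 and *Bbs5* of 4.51. The axoneme genes had the largest median of the lists with more than 6 measured genes: 65 of 69 were over 2-fold higher, 57 over 4-fold and none lower, with a median log2 ratio of 3.95. On the array before fusion 20 of the 71 axoneme genes on the array were above the floor, during fusion 64 and after fusion 69. Of the 69 measured, 49 were under the floor before fusion and could only be higher. *Rsph1*, a radial spoke protein, had signals of 41.6, 483 and 3495 (ratio 84.1). *Cfap126* and *Tmem212* were at least 139-fold and 128-fold higher. *Pifo*, *Fam183b*, *Ccdc153* and *Dnali1*, also tied to cilia, were at least 89.8-fold, 76.4-fold, 72.3-fold and 63.6-fold higher. *Dnah1*, a dynein heavy chain, and *Gas8* were within 2-fold, at 1.43-fold lower and a ratio of 1.38.

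Regulatory factor X proteins bind the X-box, an inverted repeat found upstream of cilium genes. The letters GTTGCC, one arm of it, were searched on both strands of the RefSeq promoter windows of GRCm38.p6, 250 bases before to 50 bases after each start. Windows were matched for 10927 of the 13586 genes. Here and below, a gene was counted as holding letters if any of its windows held them. The arm was held by 15.3% of the genes with a window. It was held by 22 of 57 axoneme genes with a window (38.6%), 14 of 28 transport genes and 6 of 14 regulators (42.9%). The axoneme genes that held it had a median log2 ratio of 4.61 and the others 3.43. The 250 bases upstream of the genes with the largest ratios, *Dynlrb2* (chr8:116504765-116505014, plus strand) and *Lrrc23* (chr6:124779728-124779977, minus strand), are shown 5′ to 3′ with the arm in capitals, since the arm lies close to the start in both. It begins 51 bases before the start of *Dynlrb2*, and 157 bases (on the opposite strand) and 39 bases before that of *Lrrc23*. A match is a description and not a bound site.
Dynlrb2: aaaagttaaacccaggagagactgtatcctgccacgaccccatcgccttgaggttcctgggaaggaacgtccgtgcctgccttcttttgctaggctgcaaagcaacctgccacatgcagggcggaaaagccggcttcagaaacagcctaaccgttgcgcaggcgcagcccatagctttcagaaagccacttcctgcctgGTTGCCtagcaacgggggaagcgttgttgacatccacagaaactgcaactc
Lrrc23: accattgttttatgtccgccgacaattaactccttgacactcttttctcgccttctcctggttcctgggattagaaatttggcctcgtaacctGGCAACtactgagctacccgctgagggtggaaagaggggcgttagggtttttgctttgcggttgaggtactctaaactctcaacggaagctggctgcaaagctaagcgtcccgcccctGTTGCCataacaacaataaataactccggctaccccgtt

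Secretory and stratified epithelial genes were higher as well. Among airway and gland secretions, 16 of 24 measured genes were over 2-fold higher and none lower (median log2 ratio 2.08). Of these 24, 13 were under the floor before fusion and could only be higher. *Reg3g*, an antibacterial lectin, had signals of 5.24, 302 and 1586 (at least 81.8-fold higher), and *Agr3*, which folds secreted proteins, 6.80, 99.5 and 846 (at least 43.6-fold). *Scgb1a1*, the classic club cell secretion, did not reach the floor on any array, and *Foxa2* was within 2-fold. Of 6 measured keratins of simple epithelium 5 were over 2-fold higher: *Krt8* went from 2207 to 6114, *Krt18* from 1540 to 5259, *Krt19* from 661 to 2412 and *Krt7* from 146 to 755, and *Krt23* was at least 9.40-fold higher. Among basal and stratified genes, 16 of 28 were higher and none was lower. *Krt6a*, a keratin of activated and oral epithelium, had signals of 558, 4513 and 6640 (ratio 11.9), *Krt4* of 22.5, 171 and 378 (16.8), and *Krt5* of 313, 1174 and 2295 (7.33). In contrast, *Trp63*, the regulator of stratified epithelium, was 1.63-fold lower, and *Krt1*, of cornifying skin, 1.23-fold lower.

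Of 25 measured genes of the cornified envelope 11 were over 2-fold higher and none lower, and 9 were under the floor before fusion. *Dmkn* was at least 109-fold higher, *Krtdap* 15.8-fold, *Sprr1a* 12.2-fold and *Sprr3* and *Cnfn* at least 9.59-fold and 9.02-fold, whereas *Lor*, the main protein of the skin's cornified layer, was 1.59-fold lower. Of the S100a family, 7 of 11 were over 2-fold higher, among them *S100a14* (ratio 8.97), *S100a1* (7.68) and *S100a6* (7.07), while *S100a10* was the same to within 1.01-fold. The uroplakins, plaque proteins of the urinary tract surface, went apart: *Upk3a* and *Upk1b* had ratios of 34.6 and 6.11, *Upk1a* of 1.30, and *Upk3bl* and *Upk2* were 1.81-fold and 1.62-fold lower. Genes of salt and water transport were over 2-fold higher in 5 of 15 cases and lower in none. *Atp1b1*, the beta subunit of the sodium pump, went from 122 to 1204 (ratio 9.89, and 4.26 to 9.89 over 4 measured probe sets), the sodium channel *Scnn1a* from 23.6 to 153 (6.49), and the water channels *Aqp1* and *Aqp3* had ratios of 5.57 and 5.19. Among epithelial factors *Zfp750*, *Ehf*, *Elf3* and *Klf5* had ratios of 4.68, 4.62, 3.93 and 3.47 (1.17 on the other probe set of *Klf5*). *Tfap2b*, a factor of crest and surface ectoderm, was at least 11.98-fold lower, and 3.47-fold lower on its other probe set.

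Transcription factors that pattern the palatal mesenchyme were lower. Of 35 measured, 20 were over 2-fold lower, 9 of them over 4-fold, and none was over 2-fold higher, with a median log2 ratio of -1.23. *Tbx22*, whose loss causes cleft palate in humans, had a signal of 226 before and 215 during fusion and 28.7 after it (7.86-fold lower). *Barx1* had signals of 2674, 834 and 389 (6.87-fold lower), *Lhx6* of 640, 230 and 87.0 (7.36-fold), *Lhx8* of 1037, 489 and 196 (5.30-fold) and *Foxd1* of 313, 137 and 54.9 (5.70-fold). These factors were thus lower at 24 h already, other than *Tbx22*. *Osr2*, which sets the growth of the shelf, went from 887 to 178. *Mef2c*, *Msx2* and *Alx4* lay the other way within 2-fold, at ratios of 1.80, 1.65 and at least 1.62. The Dlx family did not move together: *Dlx1* and *Dlx2* were 16.4-fold and 3.04-fold lower, *Dlx5* and *Dlx4* had ratios of 2.76 and at least 2.33, and *Dlx3* and *Dlx6* of 1.33 and at least 1.44. Of the Hox genes, which the palate mostly lacks, 7 of 25 had a ratio, and none passed 2-fold.

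Factors of epithelial-mesenchymal transition, listed with general mesenchymal markers such as *Vim* and *Acta2*, showed no common direction upward. *Prrx1*, *Twist1* and *Twist2* are also on the patterning list. The seam was not measured apart from the mesenchyme, so its own part in these values was not tested. Of 16 measured, *Acta2* alone was over 2-fold higher (ratio 2.40) and 4 were lower. *Prrx1*, a mesenchymal factor, had a signal of 2357 before and 451 after fusion, 5.23-fold lower, but its 5 measured probe sets spanned ratios of 0.191 to 1.57. *Tcf3*, *Tcf4* and *Twist2* were 2.41-fold, 2.18-fold and 2.14-fold lower, and *Vim* had a ratio of 1.45.

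Signaling pathways of the shelves differed in direction. In the hedgehog pathway, in which epithelial Shh acts on mesenchyme, 8 of 18 measured genes were over 2-fold lower and none higher (median log2 ratio -0.85). *Shh* itself had signals of 1266, 943 and 122, 10.3-fold lower, and its other probe set was at least 3.25-fold lower. Its receptor and target *Ptch1* had signals of 1795, 1168 and 581 (3.09-fold lower; 1.03-fold to 3.09-fold over 3 probe sets), and the target factor *Gli1* of 234, 126 and 63.9 (3.66-fold). *Foxf2*, which like *Foxf1* and *Foxd1* is also on the patterning list, was 5.06-fold lower. *Hhip* and *Ihh* were within 2-fold, at ratios of 1.53 and 1.95. *Shh*, *Ptch1* and *Gli1* were thus all lower on the array after fusion, while *Hhip* and *Ihh* were not.

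For FGF signaling, the feedback genes *Dusp6*, *Etv5* and *Il17rd* were 2.67-fold, 2.24-fold and 2.14-fold lower (a ratio of 1.17 on the other probe set of *Il17rd*) and the ligand *Fgf9* 2.32-fold, while the receptor *Fgfr3* and the ligand *Fgf7* had ratios of 2.56 and 2.53. In all 3 of 22 measured genes were higher, a share near the 12.9% of all genes, and 5 were lower, against 9.87%. In the Wnt pathway 4 of 47 were higher and 10 lower. The activators *Rspo3* and *Rspo2* were 4.55-fold and 2.77-fold lower, the receptor *Lgr5* 3.23-fold and the target factor *Lef1* 3.36-fold, and the extracellular antagonists *Wif1* and *Sfrp4* had ratios of 7.49 and 6.84. The ligand *Wnt11* had a ratio of 2.44. Of BMP genes 1 of 26 was higher and 3 were lower, the latter a share near the 9.87% of all genes. The ligands *Bmp7* and *Bmp4* were 3.10-fold (1.09-fold to 3.10-fold over 3 probe sets) and 2.48-fold lower and the antagonist *Chrd* 2.46-fold. The decoy receptor *Bambi* had a ratio of 2.18, and the targets *Id1* and *Id3* were within 2-fold. The TGF-beta list, with 5 of 23 higher and 2 lower, had a median log2 ratio of -0.03. Its target *Ccn2* went from 115 to 659 (ratio 5.74), *Ltbp2* was at least 6.63-fold higher and the receptor *Tgfbr1* 2.04-fold lower. None of 20 Notch genes passed 2-fold.

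Retinoic acid genes went apart, with 5 of 22 higher and 3 lower. *Aldh1a2*, the synthetic enzyme of embryonic mesenchyme, had signals of 512, 163 and 163 (3.15-fold lower), and *Cyp26a1*, the enzyme that removes the acid and is its target, of 212, 88.4 and 6.81. *Aldh1a1*, another synthetic enzyme, had signals of 22.6, 934 and 1922 (ratio 85.0), its close relative *Aldh1a7* of 229, 989 and 1600 (6.97), and the alcohol dehydrogenase *Adh1* of 54.2, 283 and 896 (16.5). *Aldh1a1* and *Aldh1a7* are close copies of one another, and a probe set may take signal from both. The binding protein *Crabp2* was 2.05-fold lower and the receptor *Rarb*, a target, 1.82-fold.

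**Figure D4:**
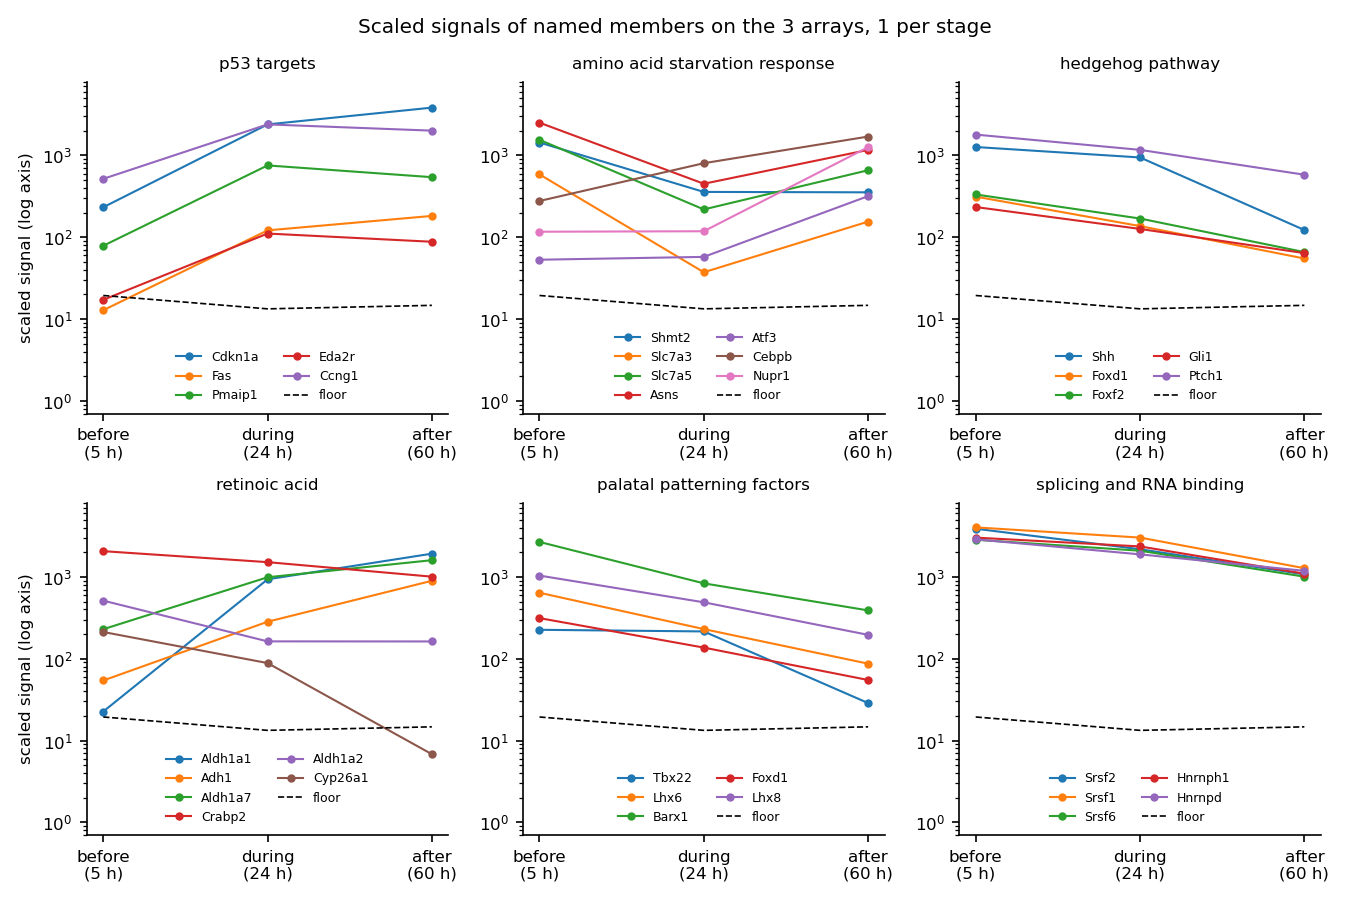
Scaled signal (log axis) of named members of 6 gene lists on the arrays before (5 h), during (24 h) and after fusion (60 h), 1 array per stage, with the floor of each array as a dashed line. The hedgehog, patterning and splicing genes are lowest after fusion, *Cdkn1a* and *Fas* are highest there, and *Asns*, *Slc7a3* and *Slc7a5* are lowest during fusion.

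Genes of DNA replication were lower after fusion. Of 52 measured, 20 were over 2-fold lower and none higher, and the median log2 ratio was -0.87. *Orc1*, of the origin recognition complex, had signals of 67.6, 52.9 and 15.3 (4.42-fold lower, with 1.53-fold on its second probe set), the kinase *Cdc7* of 185, 145 and 54.5 (3.39-fold), the thymidine kinase *Tk1* of 612, 306 and 203 (3.01-fold), and the polymerase subunit *Pola2* of 317, 212 and 108 (2.92-fold). *E2f7*, a repressor of this programme, lay the other way at a ratio of 1.61. Mitosis genes differed less: 11 of 68 were over 2-fold lower, with a median log2 ratio of -0.56. *Espl1*, separase, was 3.35-fold lower, the kinetochore genes *Spc24*, *Cenpe* and *Cenph* 2.98-fold, 2.45-fold and 2.30-fold, and *Cdca5* 2.26-fold. The exception was *Nek2*, a centrosomal kinase, with signals of 171, 235 and 1090 on its brightest probe set (ratio 6.36) and a ratio of 0.770 on the least of 3 measured probe sets.

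The promoters of the replication and mitosis lists differed in the letters they held. E2F sites (TTTCGCGC or TTTGGCGC, both strands) were held by 13 of 44 replication genes with a window (29.5%) and 3 of 56 mitosis genes (5.36%). Of all measured genes with a window, 1.74% held one. The cell cycle homology region (TTTGAA) was held by 38 of 56 mitosis genes (67.9%), 10 of 44 replication genes (22.7%) and 14.3% of all. CCAAT was held by 42 of 56, 27 of 44 (61.4%) and 42.2%. Replication genes with an E2F site had a median log2 ratio of -0.94 and those without one -0.79, and mitosis genes with the homology region one of -0.44 and those without it -0.24. These medians cover only genes with a window, 44 of 52 for replication and 56 of 68 for mitosis. Both mitosis medians are less negative than the -0.56 of the whole list. The upstream sequences of *Orc1* (chr4:108579204-108579453, plus strand), with its E2F letters in capitals, and *Espl1* (chr15:102296043-102296292, plus strand), with its homology region in capitals, are shown because these genes were the lowest of their lists and hold the letters at the same distance, 27 bases before the start.
Orc1: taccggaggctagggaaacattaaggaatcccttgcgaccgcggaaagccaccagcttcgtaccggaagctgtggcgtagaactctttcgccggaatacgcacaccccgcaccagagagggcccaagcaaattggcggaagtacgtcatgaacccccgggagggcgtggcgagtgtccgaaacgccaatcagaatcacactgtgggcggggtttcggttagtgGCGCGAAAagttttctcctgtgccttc
Espl1: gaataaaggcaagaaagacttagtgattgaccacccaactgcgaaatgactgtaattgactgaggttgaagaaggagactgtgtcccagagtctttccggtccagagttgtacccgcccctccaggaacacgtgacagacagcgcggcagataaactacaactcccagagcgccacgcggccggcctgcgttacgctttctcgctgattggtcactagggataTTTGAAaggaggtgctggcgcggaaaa

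Of 15 measured inhibitors of the cell cycle 4 were over 2-fold higher and 1 lower, with a median log2 ratio of 0.47. *Cdkn1a*, p21, which stops cells before S phase, had signals of 232, 2392 and 3834 (ratio 16.5, and 14.3 on its other probe set), and *Ccng1* of 517, 2392 and 2006 (3.88). The retinoblastoma gene *Rb1* had a ratio of 3.15 and *Cdkn2b* of 3.22, while *Cdkn1c*, of the fetal growth inhibitors, was 1.498-fold lower and *Ccng2* 2.08-fold. Of 22 measured p53 targets 14 were over 2-fold higher and none lower (median log2 ratio 1.35). The death receptor *Fas* was at least 9.39-fold higher, *Eda2r* at least 4.54-fold and the BH3-only gene *Pmaip1*, with signals of 78.6, 754 and 542, 6.89-fold. *Pmaip1*, *Eda2r* and *Ccng1* had their highest signal at 24 h. *Sesn1* was 1.62-fold lower. The apoptosis machinery as a whole had 4 of 25 higher and 3 lower, shares near the 12.9% and 9.87% of all genes. Its median log2 ratio was -0.04. *Bmf*, *Casp2* and *Casp9* were 3.18-fold, 2.08-fold and 2.03-fold lower and *Casp1*, the inflammatory caspase, at least 2.71-fold higher. The p53 list and the inhibitor list share *Cdkn1a*, *Ccng1* and *Btg2*.

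A group of genes known from early embryonic growth was lower. Lin28 and Hmga2 are held down by let-7 microRNAs as tissues mature. *Hmga2*, an architectural chromatin protein, had signals of 1456, 377 and 225 (6.47-fold lower, and 6.47-fold to 11.3-fold over its measured probe sets). *Igf2bp1* was 3.21-fold lower, *Mycn* 3.15-fold (ratios of 0.317 to 1.26 over 3 probe sets), *Sox11* 2.77-fold and *Sox12* 2.63-fold. In all 8 of 17 measured were over 2-fold lower and none higher, with a median log2 ratio of -0.79, while *Nras* and *Tet1* had ratios of 1.81 and 1.55. Imprinted growth genes were mixed, with 2 of 22 higher and 4 lower: beside *Nnat*, *Magel2* was at least 3.86-fold lower and *Ndn* 2.15-fold, and *Dcn* was 7.29-fold higher.

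RNA-binding proteins of splicing were lower and ribosomal proteins were not. *Srsf2*, *Srsf1* and *Srsf6*, which choose exons, had signals of 3879, 2177 and 1074, of 4027, 3022 and 1278 and of 2845, 2089 and 1007, and were 3.61-fold, 3.15-fold and 2.83-fold lower. Over 6 measured probe sets of *Srsf1* the difference was 3.15-fold to 4.62-fold, over 4 of *Srsf6* 2.83-fold to 4.26-fold and over 4 of *Srsf2* 1.73-fold to 3.61-fold. *Hnrnph1* and *Hnrnpd* were 2.76-fold and 2.42-fold lower. Of 29 measured genes of this list 8 were over 2-fold lower and none higher (median log2 ratio -0.71), while *Sf3b1* and *Sf3a1*, of the core spliceosome, had ratios of 1.09 and 1.24. The letters TGACG were held by 19 of 28 genes of this list with a window (67.9%), against 34.0% of all genes with one. The cAMP response element TGACGTCA, which contains these letters, was held by 0 of the 28, against 3.42%. Among 42 cytosolic ribosomal proteins none passed 2-fold and the median log2 ratio was -0.02, with *Rplp0* at 11634, 11233 and 12582. Of 38 genes of ribosome assembly, *Polr1b* was 2.53-fold lower and *Rrp12* had a ratio of 2.43, and the others were within 2-fold. Chromatin regulators had 4 of 22 lower and none higher, among them *Hmgb3* (3.64-fold), *Smarcd1* (3.36-fold) and *Cbx5* (2.96-fold).

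Of 42 measured genes of the response to amino acid shortage 6 were over 2-fold higher and 5 lower, shares near the 12.9% and 9.87% of all genes. The transcription factor Atf4 drives genes for amino acid synthesis, transport and stress, and some of them hold the CARE element. *Asns*, asparagine synthetase, had signals of 2511 before, 450 during and 1166 after fusion (2.15-fold lower), the transporters *Slc7a5* of 1550, 219 and 658 (2.36-fold) and *Slc7a3* of 585, 37.3 and 155 (3.78-fold), and *Aldh1l2* of 292, 77.3 and 141 (2.07-fold). These 4 were lowest at 24 h and lay between at 60 h. *Shmt2*, of mitochondrial serine metabolism, had signals of 1437, 358 and 354 (4.06-fold lower). *Nupr1*, a stress protein, stood at 117 and 118 and then at 1260 (ratio 10.8, and 10.3 on its other probe set), *Atf3* at 53.1, 57.5 and 318 (5.99), and *Cebpb* at 277, 802 and 1698 (6.13). The CARE letters TGATGCAAT (both strands) were held by 4 of 33 genes with a window (12.1%), *Nupr1*, *Fgf21*, *Iars* and *Aars*, and by 0.137% of all genes with one. Other forms of the element were not searched. The sequence upstream of *Nupr1* (chr7:126625471-126625720, minus strand) is shown with the element, read on the opposite strand, in capitals; it begins 111 bases before the start.
Nupr1: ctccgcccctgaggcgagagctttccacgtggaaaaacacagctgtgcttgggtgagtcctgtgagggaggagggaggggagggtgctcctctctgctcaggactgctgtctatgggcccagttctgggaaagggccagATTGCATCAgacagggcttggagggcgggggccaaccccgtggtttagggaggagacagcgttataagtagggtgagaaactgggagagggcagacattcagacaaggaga

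Chaperones of the endoplasmic reticulum stayed within 2-fold in all 23 cases, with *Creld2* at a ratio of 1.96 and *Pdia6* 1.89-fold lower. Cytosolic heat shock genes were higher in 5 of 15 cases with none lower: *Hspa1a* went from 53.7 to 341 (ratio 6.35), *Hspa1b* from 370 to 982 (2.66), *Hsp90aa1* from 3164 to 8355 (2.64) and *Hspb1* from 1598 to 4182 (2.62), and *Hspd1* of mitochondria was 1.19-fold lower. Of 20 cholesterol synthesis genes 3 were over 2-fold higher, a share near the 12.9% of all genes, and none lower, and 18 had a ratio above 1 (median log2 ratio 0.65). *Msmo1* had signals of 369, 626 and 1196 (ratio 3.24, and 1.16 on its other probe set), *Fdps* of 815, 1216 and 2065 (2.54) and *Idi1* of 261, 659 and 615 (2.35). With the arrays scaled to their poly-A controls the median was 0.28. CCAAT, the letters bound by NF-Y, was held by all 16 cholesterol genes with a window, against 42.2% of all genes with one. *Msmo1* (chr8:64733579-64733828, minus strand) is shown because it had the largest ratio of the list and holds the letters 3 times, from 160 to 55 bases before the start.
Msmo1: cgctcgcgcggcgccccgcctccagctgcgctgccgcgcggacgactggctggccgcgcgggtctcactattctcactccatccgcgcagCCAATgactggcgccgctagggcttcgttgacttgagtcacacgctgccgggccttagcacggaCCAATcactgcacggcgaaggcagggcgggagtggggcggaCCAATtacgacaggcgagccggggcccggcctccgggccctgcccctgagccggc

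Energy metabolism differed little. Of 56 respiratory chain subunits *Cox7c*, by a dim probe set, was at least 2.63-fold lower and the others were within 2-fold (median log2 ratio 0.03). No proteasome gene of 28 passed 2-fold. In glycolysis *Slc2a3*, a glucose transporter of embryonic cells, had signals of 1210, 605 and 277 (4.36-fold lower, and 3.16-fold to 4.36-fold over 4 probe sets), and *Aldoc* and *Eno2* had ratios of 2.33 and 2.28. The hypoxia-induced genes *Adm* (19.6, 74.1 and 241, ratio 12.3) and *Ndrg1* (118, 324 and 610, ratio 5.15) were higher and *Car9* was 1.78-fold lower, and in all 5 of 22 were higher and 1 lower. Detoxifying enzymes were higher in 22 of 38 cases and lower in 2, and 12 of the 38 were under the floor before fusion. *Cbr2*, a carbonyl reductase of airway, went from 120 to 5224 (ratio 43.5), *Ephx1* from 33.4 to 899 (26.9), *Gsta3* from 23.97 to 322 (13.4) and *Hmox1* from 108 to 763 (7.09). *Gstm7* and *Cyp1b1* were 3.78-fold and 2.15-fold lower, with *Cyp1b1* 1.24-fold lower on its other probe set.

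Immediate-early genes, which respond to serum, stress and handling within the hour, were over 2-fold higher in 22 of 34 cases and lower in none, with a median log2 ratio of 1.53. *Fos* had signals of 74.7, 425 and 1911 (ratio 25.6), *Nr4a1* of 80.8, 205 and 1379 (17.1), *Ccn1* of 92.2, 295 and 1073 (11.6), *Zfp36* of 93.0, 148 and 718 (7.72) and *Junb* of 38.9, 120 and 288 (7.41). *Ier2*, *Egr3* and *Dusp2* were within 2-fold, at 1.19-fold, 1.11-fold and 1.49-fold lower. TGACG was held by 18 of 27 genes with a window (66.7%), against 34.0% of all genes with one. The full cAMP response element TGACGTCA, which contains it, was held by 3 (11.1%, against 3.42%), and the CArG box by 3 (11.1%, against 1.56%). In each case the holders had the lower median log2 ratio. The medians were 1.53 against 1.88 for TGACG, 1.48 against 1.80 for the full element and 0.57 against 1.76 for the CArG box. Of 16 clock genes 6 were higher and none lower. *Bhlhe40* went from 42.4 to 355 (ratio 8.37), *Nr1d1* had a ratio of 3.19, *Clock* of 2.59 and *Nr1d2* of 2.46, and *Arntl* was 1.02-fold lower. The hour of day of each dissection is not given in the sources used here, so its part in these values was not tested.

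Of 21 osteoblast genes 17 were over 2-fold higher and none lower (median log2 ratio 2.13), and 10 were under the floor before fusion. *Ibsp*, bone sialoprotein, had signals of 6.35, 2431 and 4680 (at least 241-fold higher), and *Ifitm5*, *Mmp13* and *Panx3*, also of bone, reached at least 25.01-fold, 23.3-fold and 20.3-fold. *Sp7*, the osteoblast factor, went from 43.9 to 159. Among the small proteoglycans and glycoproteins *Tnn*, *Thbs2*, *Ogn* and *Dcn* had ratios of 13.1, 10.5, 9.81 and 7.29, and *Smoc1*, *Smoc2* and *Vcan* were 3.50-fold, 2.39-fold and 2.04-fold lower. In collagens 9 of 27 were higher and 2 lower, with *Col1a1* at 1180, 2180 and 8301 (ratio 7.03) and *Col25a1* and *Col18a1* 3.78-fold and 2.58-fold lower. *Has2*, which makes the hyaluronan that swells the shelves, had signals of 349, 277 and 75.3 (4.64-fold lower, and 5.53-fold on its other probe set), and the receptor *Cd44* a ratio of 2.43. Matrix proteases had 5 of 23 higher and 5 lower: *Mmp9* was 6.92-fold higher, and *Adamts18* (160, 226 and 23.1), *Adamts15* and *Mmp11* were 6.94-fold, 4.66-fold and 4.42-fold lower. The ratio of *Adamts18* ran from 0.111 to 0.481 over the alternative settings. Cartilage genes had 4 of 17 higher and 4 lower, with *Col2a1* 2.27-fold lower and *Col11a2* at least 10.3-fold higher.

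**Figure D5:**
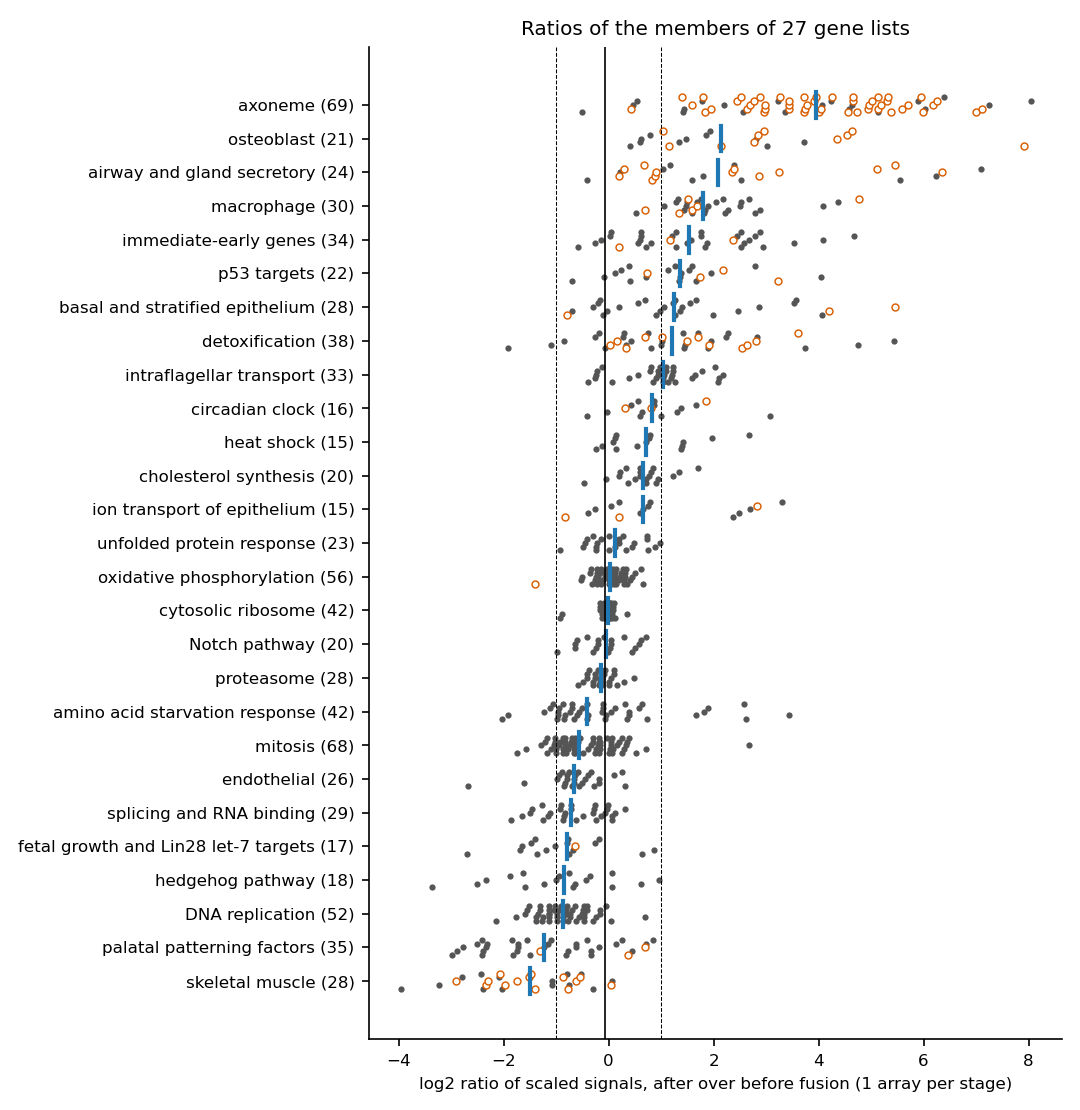
Log2 ratio after over before fusion of each measured member of 27 gene lists (number measured in brackets), 1 array per stage. Filled points are above the floor on both arrays, open points are bounds, blue bars are list medians, the solid line is the median of all 13586 genes (-0.07) and the dashed lines mark 2-fold. The list medians run from -1.49 for skeletal muscle to 3.95 for the axoneme, and the ribosomal, respiratory and proteasome genes stay between the dashed lines other than one respiratory gene.

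Genes of other cell types in the dissected piece differed between the arrays too. Skeletal muscle genes summed to 2598 before, 879 during and 570 after fusion, with 27, 18 and 15 of 41 above the floor. Of 28 measured, 18 were over 2-fold lower, and 13 were under the floor after fusion and could only be lower. *Actc1* was 15.6-fold lower, *Mylpf* 9.41-fold and *Tnnc1* 6.95-fold. Erythroid genes summed to 16320, 10587 and 2566. *Hbb-y* went from 11444 to 1723, while *Alas2*, which red cell precursors need for heme, had a ratio of 1.27. Endothelial genes summed to 5455, 2723 and 2843. Of 26 measured, 2 were over 2-fold lower, against 9.87% of all genes, and none higher. These were *Aplnr* (1613, 425 and 252), 6.40-fold lower, and *Tek*, 3.04-fold, while *Pecam1*, *Cdh5* and *Kdr* were within 2-fold. The summed muscle, red cell and vessel signals were thus all lower after fusion than before it, and the part of tissue composition in the ratios was not tested.

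Macrophage genes lay the opposite way. Their sum was 2161 before, 4616 during and 10227 after fusion, and 28 of 30 measured were over 2-fold higher. *Gpnmb* was at least 27.2-fold higher, *Lyz2* went from 37.3 to 776 (ratio 20.8) and *Cd68* from 28.1 to 478 (17.0), while the defining receptors *Csf1r* and *Adgre1* had ratios of 2.81 and 2.79 and *C1qa* of 2.07. All 32 measured lysosomal genes had a ratio above 1, and 10 passed 2-fold, led by *Ctss* and *Ctsh* at 6.93 and 6.04. Granulocyte genes were uneven: *Ltf* was at least 34.5-fold higher and *S100a8* and *Lcn2* at least 10.96-fold and 9.46-fold, whereas *Elane* and *Mpo* did not pass 2-fold and *Camp* stayed under background throughout. *Ltf*, *Lcn2* and the S100a genes are made by epithelium as well. Of the mast cell genes *Hdc* was at least 94.6-fold higher, and *Kit* had a ratio of 1.05, *Cpa3* one of at least 1.54, and *Mcpt4* and *Tpsb2* no ratio. Lymphocyte genes were near background, with 2 of 11 above the floor after fusion and 1 before. Interferon-stimulated genes had 13 of 27 higher and none lower, with *Usp18* and *Xaf1* at least 8.04-fold and 6.55-fold higher, and antigen presentation genes 8 of 16, with *H2-Eb1* at a ratio of 7.81. Among complement and acute phase genes, 8 of 15 were higher: *Hp*, haptoglobin, was at least 32.7-fold higher and *Cd55* 15.8-fold. Chemokines had 13 of 28 higher and none lower, with *Ccl25* at least 11.6-fold higher on one probe set and 1.49-fold lower on the other. Under the floor before fusion were 8 of the 27 interferon-stimulated, 9 of the 15 complement and acute phase and 9 of the 28 chemokine genes.

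Neuronal genes lay in both directions. *Stmn2* had signals of 35.9, 109 and 278 (ratio 7.76), *Prph* and *Neurod1* were at least 4.43-fold and 3.88-fold higher, with a ratio of 1.18 on the other probe set of *Prph*, and *Dcx* and *Nefl* were 2.97-fold and 2.90-fold lower, with 7 of 25 higher and 3 lower in all. Of olfactory genes 4 of 11 were higher, *Lhx2* at least 10.1-fold, *Stoml3* at least 6.01-fold and *Gng13* at least 4.36-fold (0.608 on its other probe set), while *Omp*, the marker of mature olfactory neurons, was under the floor before and after fusion. The part of nasal tissue in the ciliary and secretory ratios was not tested. For glia, *Ngfr* and *Sox10* were 3.17-fold and 2.76-fold lower, and *Mal*, which epithelia also make, was 20.9-fold higher. Of the remaining lists, junction genes had 5 of 30 higher and 1 lower and the IGF system 2 of 17 higher, against 12.9% and 9.87% of all genes. Smooth muscle had 4 of 11 higher and 2 lower, osteoclast genes 5 of 11 higher, tooth germ genes 4 of 10 lower and salivary gland genes none of 2. Of the lower tooth germ genes, *Shh*, *Lef1* and *Msx1* are also on the hedgehog, Wnt and patterning lists. Fat genes were higher in 11 of 19 cases with none lower, among them *Cd36* (ratio 13.5) and *Fabp4* (at least 5.49), with *Adipoq* below background on each array.

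Most genes often used as references differed little, and with 12 measured 1 was over 2-fold higher and 1 lower. *Actb* was 1.10-fold lower, *Eef1a1* 1.09-fold and *Ywhaz* 1.02-fold, *Rplp0* and *Tbp* had ratios of 1.08 and 1.09, and *Hprt* and *Gusb* of 1.83 and 1.53. *B2m*, which interferons induce, had a ratio of 2.50, and *Polr2a* was 2.12-fold lower. *Tfrc*, *Pgk1* and *Sdha* were 1.62-fold, 1.44-fold and 1.18-fold lower.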

How the data were processed

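Expression was measured with 1 Affymetrix mouse genome array per stage, and the stage came from the sample labels and the hours from the legend of the study's first figure. The authors computed 1 signal intensity per probe set in GeneChip Operating Software by MAS5, which corrects background, and deposited these intensities on a linear scale. No file gives the comparisons they made. The methods name Trizol for RNA extraction and the labels a column kit.

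Of 45101 probe sets 64 are controls. Of the other 45037, 34945 name 1 gene by the platform annotation, 932 several and 9160 none. For 34741 of the 34945 probe sets the gene was matched to GRCm38.p6. Each array was multiplied so that its trimmed mean, without the highest and lowest 2%, was the same, by factors of 1.11 before, 0.918 during and 0.986 after fusion, from trimmed means of 123.6, 150.02 and 139.7. The floor was the 95th percentile of 81 probe sets of sensory receptors. Above it lay 56.8% of probe sets before and 61.4% after fusion. A gene was represented by its probe set with the highest mean over the 3 arrays and counted past 2-fold. A bound that pointed the other way than the signals gave no ratio. Arrays have no read depth, and precision is limited by their number, which allowed no test.

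The 75 lists (2071 entries), the lists' members and the rules were chosen with earlier results of these data known. The text names genes from among the 15 genes with the largest and the 15 with the smallest ratio among genes with both signals above the floor, the 10 largest bounds each way, up to 5 members of each list furthest in the direction of its median and up to 3 the other way, marker genes of cell types, and the members with a ratio of the sex, reference, Dlx and uroplakin lists and of the genes the study lists, of which few are given here. Predicted genes were passed over. Genes whose promoter holds a motif, and those whose probe sets disagree, were named after their values were seen. Promoter windows are RefSeq's, GRCm38.p6. The motif letters, and the lists searched for each, were chosen for this report and read with no test. The steps were tested on simulated data. Python 3.11.15, pandas 2.3.3 and numpy 2.4.6 were used. Alternatives were 5 other scalings, no floor, other floors, the floor added, the median over a gene's probe sets, probe sets without the suffixes that mark shared targets, and a 4-fold threshold.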

Additional observations from a re-analysis of the deposited data

How the results depend on the processing

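With 1 array per stage, the spread between embryos is unknown, no replicate could be left out, and dim genes carry bounds only. No paired analysis was possible because each stage has a single array. The counts past 2-fold depended on 4 settings. Of genes, 1758 higher and 1341 lower became 1161 and 3008 with scaling to the poly-A controls, 3141 and 2816 with no floor, and 648 and 123 at 4-fold, and 888 were lower with the signals as deposited. Of probe sets, 2858 higher and 2991 lower became 1751 and 6718, 7432 and 8644, and 910 and 236, and 1952 were lower with the signals as deposited. With no floor all genes enter, those at background included, and the 4-fold threshold keeps fewer by construction; for the scalings, the cause was not tested beyond the shift of the median they give. The other settings, 8 for genes and 6 for probe sets, moved each of these counts by less than 1.5 times. Among the 40 lists with a median log2 ratio past 0.5 in size, all 440 values under 11 alternatives kept their direction and 413 stayed past 0.5. The lists that fell short somewhere were 13, among them mitosis (-0.38 with the signals as deposited), endothelial genes (-0.48 with the same) and cholesterol synthesis (0.28 with the poly-A controls). Of 348 named genes past 2-fold, none changed direction, and 81 came within 2-fold under at least 1 alternative, *Orc1*, *Prrx1*, *Ptch1*, *Srsf2* and *Asns* among them.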

Other observations

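Some genes had probe sets that passed 2-fold in opposite directions. This was the case for 13 of 5522 genes with at least a pair of probe sets above the floor on both arrays. *Pdgfra*, a growth factor receptor of palatal mesenchyme, had signals of 2304 before, 1408 during and 918 after fusion on one probe set (2.51-fold lower) and of 85.7, 56.8 and 234 on another (ratio 2.72). *Ifnar2*, a subunit of the interferon receptor, had signals of 198, 246 and 601 on one (ratio 3.04) and of 141, 114 and 69.9 on another (2.02-fold lower). *Dclk1* and *Fzd3* had ratios of 2.71 and 2.45 on one probe set and were 2.12-fold and 2.47-fold lower on another, and *Pttg1*, securin, had a ratio of 2.22 and was 2.31-fold lower. For these genes the ratio of the brightest probe set does not stand for all probe sets.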
